A study of Mus musculus with 23 samples.

Results

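Lung neutrophils of *Piezo1*-cKO mice were compared with lung neutrophils of WT mice by bulk RNA-Seq, with 2 libraries per genotype out of the 23 libraries of the study. The genes described are those with at least 1 FPKM (fragments per kilobase of gene and 1000000 assigned reads, a level corrected for gene length) in at least 2 of these 4 libraries, which 6434 of the 21878 listed genes reached. *Piezo1*-cKO mice carried *Vav1-iCre* and *Piezo1* fl/fl alleles, in which loxP sites flank an internal block of exons. The *Vav1* promoter drives Cre in all blood cells and their progenitors, so that the deletion was not restricted to neutrophils. The labels call the controls WT and do not say whether these mice carried loxP sites or Cre. The study used untreated young adults of either sex, digested perfused lungs with collagenase and sorted CD45+CD11b+Ly6G+ cells after a negative selection. The labels do not say whether libraries of a genotype came from separate mice, so the p-values measure the spread between these libraries, which may be technical.

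PIEZO1 is a cation channel that opens when the membrane is stretched and lets calcium into the cell. Neutrophils are wider than many lung capillaries and deform to pass through them, and a large pool of them is held in the lung vessels at rest. These cells release chemokines of the CXC family, which recruit more neutrophils, and growth factors such as VEGFA, which acts on the endothelium.

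Between 14262343 and 15034817 reads were assigned to genes in the 4 libraries. Replicates differed little: their biological coefficient of variation was 2.06% between the WT and 2.54% between the *Piezo1*-cKO lung libraries. On log2(FPKM + 1), libraries of a genotype were 12.3 and 12.0 units apart and libraries of different genotypes 29.3 to 29.6. The *Piezo1*-cKO libraries had more genes at 1 FPKM or above (6330 and 6312, against 6088 and 6103 in WT), fewer genes with any read (11658 and 11672 against 12354 and 12400) and a smaller share of reads in their 10 most abundant genes (14.5% and 14.8% against 17.0% and 17.2%). Neutrophil identity genes were high in both genotypes: the 13 neutrophil markers, all tested, summed to 106843 and 110393 FPKM in WT and 82847 and 87420 FPKM in *Piezo1*-cKO. *S100a8* and *S100a9* made up most of these sums, and in WT replicate 1 the other 11 ranged from 61.4 FPKM for *Ly6g* to 8992 FPKM for *G0s2*.

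The targeted gene was at the edge of detection. *Piezo1* (NCBI gene 234839) lies on chromosome 8, 122481698 to 122551329 in GRCm38. It had 8 and 8 reads in the WT libraries and 7 and 4 reads in the *Piezo1*-cKO libraries, or 0.0577 and 0.0571 against 0.0510 and 0.0301 FPKM. It did not pass the filter. Unfiltered edgeR on recovered reads put its log2 fold change at -0.60 (adjusted p = 0.405), and with so few reads no difference was detectable in these libraries. WT lung neutrophils of the tissue comparison had 0.213 to 0.382 FPKM. The study reported that *Vav1-Cre* removed *Piezo1* RNA and protein efficiently, measured in bone marrow neutrophils. Values over the whole gene do not separate the deleted exons from the rest. *Vav1* itself was at 43.7 and 43.6 FPKM in WT and 47.3 and 46.2 FPKM in *Piezo1*-cKO, and was not called. The genotypes were separated by *Commd10*, a gene of the COMMD family of protein sorting factors, in which the *Vav1-iCre* transgene of this mouse line is catalogued to have inserted. *Commd10* (chromosome 18, 46958819 to 47087995) had 1.30 and 1.45 FPKM in WT and 41.2 and 44.4 FPKM in *Piezo1*-cKO lung neutrophils. On the log2 scale it was 4.21 ± 0.07 (SE) higher (adjusted p = 4.93e-07 from limma), and in PB neutrophils it went from 0.601 and 0.165 to 65.7 and 64.0 FPKM. *Commd10* was thus high in both *Piezo1*-cKO lung libraries and low in both WT libraries. Whether the transgene raised it was not tested.

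Fold changes are *Piezo1*-cKO minus WT on log2(FPKM + 1), and a gene is said to rise or fall where its adjusted p from limma was below 0.05 and its fold change exceeded 0.5 in either direction. Genes under 1 FPKM in both libraries of 1 genotype passed the filter only through the other, where they were higher. They include *Tgfb1*, *Angpt2*, *Nqo1*, *Lrrc8a*, *Ptgs1*, *Cd48*, *Ear2* and *Pf4* through *Piezo1*-cKO, and *Pycard*, *Prtn3* and *Hbb-bs* through WT. This selection enters their calls and the list counts. More genes rose than fell. Of the 6434 genes, 692 (10.8%) rose and 211 (3.28%) fell, 903 in all. Most changes were small. Above an absolute log2 fold change of 1, the threshold the study used for DEGs, 51 genes (0.793%) rose and 13 (0.202%) fell, 64 (0.995%) in all. The libraries were close enough that the 2 genotypes did not overlap at 4930 genes (76.6%). The median gene was 0.09 higher in *Piezo1*-cKO. With FPKM rescaled so that the median gene stood still, 454 genes rose and 316 fell, and the share of risen genes among called ones went from 76.6% to 59.0%. The number of DEGs depended on the scale of the fold change. It was 332 with limma and a pseudocount of 0.1 in place of 1, and 345 from edgeR and 311 from DESeq2 on recovered reads, where test and scaling differ as well. Fewer cells of a type and less RNA per cell cannot be told apart in such bulk samples.

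**Figure D1:**
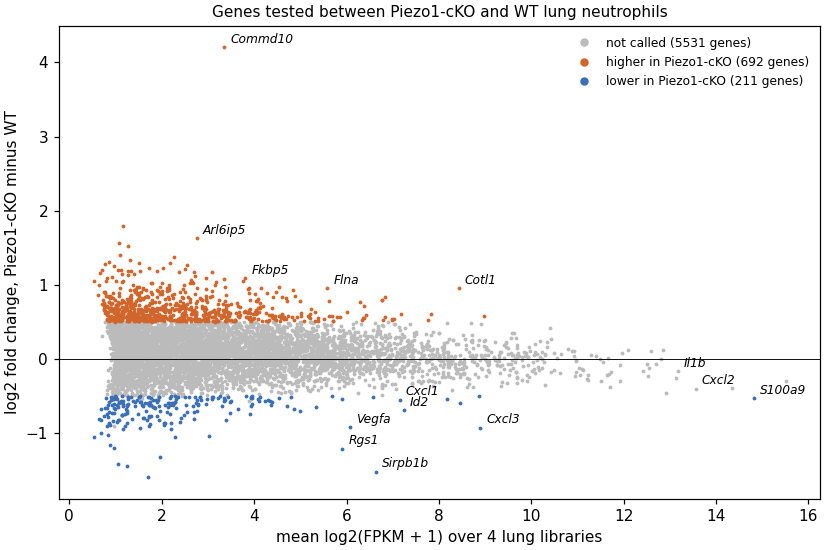
Each point is 1 of the 6434 genes tested, with its mean log2(FPKM + 1) over the 4 lung libraries on the x axis and its log2 fold change, Piezo1-cKO minus WT, on the y axis, coloured by call. The 692 genes called higher and the 211 called lower both lie mostly at low levels. In the lowest quintile of level 233 rose and 79 fell, and in the highest 39 rose and 14 fell. Cxcl3 and S100a9 are abundant genes called lower, and Commd10 lies apart at 4.21.

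Genes that rose differed from the others in a measure taken from blood libraries. WT PB neutrophils were sequenced both here and in the separate comparison of tissues, and the difference between the 2 experiments in log2(FPKM + 1) of these blood libraries was taken as a measure for each gene that uses no lung library. In the quintile of genes with the lowest values, from -5.44 to -0.94, 238 of 1287 genes (18.5%) rose in *Piezo1*-cKO lung neutrophils and 15 (1.17%) fell. In the quintile with the highest values, 76 of 1287 (5.91%) rose and 49 (3.81%) fell. The median of this measure was -0.41 over the 692 genes that rose, 0.19 over the 211 that fell and 0.07 over the rest. It differed between the gene lists below. All 4 risen secreted cytokines were under 0 (median -1.45), as were the 3 risen immediate early genes (-1.61). So were the 3 risen genes of G-protein signalling (-2.69). Of the 4 risen chemoattractant receptors 1 was (median 0.57), and of the 2 risen adhesion genes 0 (0.55). Gene length moved with the call as well, and is not separate from this measure (Spearman correlation -0.51). Of the shortest quintile of genes, 102 of 1287 (7.93%) rose and 83 (6.45%) fell, and of the longest quintile 152 (11.8%) rose and 8 (0.622%) fell. The median log2 fold change went from -0.01 in the shortest quintile to 0.18 in the longest. The GC content of transcripts moved less, with medians of 0.08 in the lowest and 0.10 in the highest quintile. What part these properties had in the calls was not tested.

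**Figure D2:**
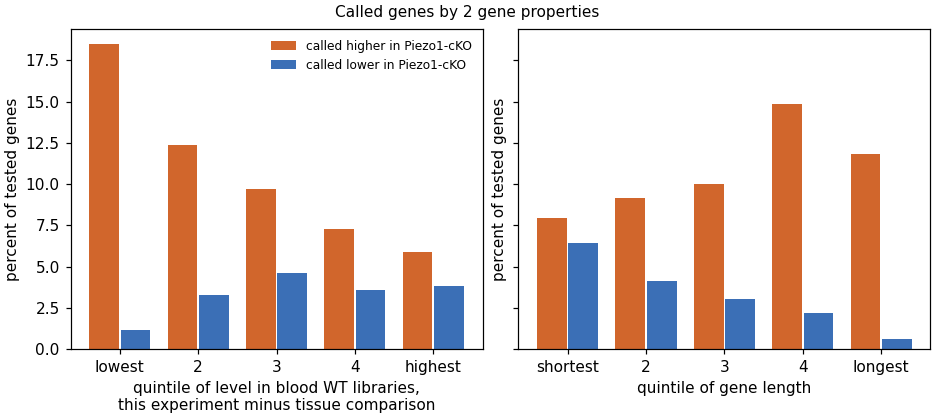
Bars give the percent of tested genes called higher (orange) or lower (blue) in Piezo1-cKO lung neutrophils, by quintiles of the difference between 2 experiments in WT blood libraries (left) and of gene length (right). Risen genes make up 18.5% of the lowest quintile on the left and 5.91% of the highest, and fallen genes 6.45% of the shortest and 0.622% of the longest genes.

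Of the neutrophil-attracting CXC chemokines, *Cxcl3* and *Cxcl1* fell in *Piezo1*-cKO lung neutrophils. *Cxcl3*, *Cxcl1* and *Cxcl2* lie in 1 cluster on chromosome 5 and encode ligands of CXCR2, the main chemokine receptor of neutrophils. Their promoters are shown because all 3 genes had lower values in *Piezo1*-cKO. Each holds 1 match, GGGAATTTCC, to an NF-kB motif (GGG, then any base, then ATTTCC), searched on both strands within 250 bases before and 50 after the gene start, which 0.320% of all 32851 RefSeq promoters hold. The 150 bases before the start are given from RefSeq on GRCm38.p6, plus strand, with the motif in capitals.
Cxcl3, chr5:90785951-90786100: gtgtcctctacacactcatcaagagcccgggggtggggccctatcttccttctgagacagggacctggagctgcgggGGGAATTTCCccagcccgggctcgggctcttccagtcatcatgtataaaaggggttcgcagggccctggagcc
Cxcl1, chr5:90891095-90891244: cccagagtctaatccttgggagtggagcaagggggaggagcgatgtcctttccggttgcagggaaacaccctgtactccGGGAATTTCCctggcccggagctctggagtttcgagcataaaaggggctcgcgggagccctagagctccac
Cxcl2, chr5:90903749-90903898: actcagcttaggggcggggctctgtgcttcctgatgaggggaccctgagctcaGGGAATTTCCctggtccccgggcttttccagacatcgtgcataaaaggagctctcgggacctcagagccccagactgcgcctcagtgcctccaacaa
The motif starts 73 bases before the start of *Cxcl3*, 71 before that of *Cxcl1* and 97 before that of *Cxcl2*. Among tested genes with a promoter in the table, 34 of 5246 hold it, 3 of them among the 174 that fell and 4 among the 572 that rose. The 3 that fell include *Cxcl3* and *Cxcl1*, which were shown for their lower values, so nothing is read from these shares. The 3 genes shown are neighbours in 1 cluster, and their matches may not be independent. A match describes these letters only and is no evidence of binding.

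*Cxcl3* (NCBI gene 330122, 90786101 to 90788093) had 649 and 669 FPKM in WT and 353 and 335 FPKM in *Piezo1*-cKO lung neutrophils. Both *Piezo1*-cKO libraries lay well under both WT libraries, with a log2 fold change of -0.94 ± 0.03 (SE) and an adjusted p of 1.15e-05 from limma. *Cxcl1* had 170 and 172 FPKM in WT and 113 and 120 in *Piezo1*-cKO, which is -0.56 ± 0.04 (SE) on the log2 scale (adjusted p = 0.000103 from limma). *Cxcl2* was among the most abundant messages of these cells. It had 13892 and 13832 FPKM in WT and 10278 and 10668 in *Piezo1*-cKO, and its log2 fold change of -0.40 ± 0.02 (SE, adjusted p = 3.02e-05 from limma) did not reach the threshold of 0.5. With rescaled FPKM it was -0.52 and called, as with edgeR and DESeq2. Of the 12 chemokines tested, 2 fell (16.7%, against 3.28% of all genes) and 1 rose (8.33%, against 10.8%), with a median of -0.33 against 0.09 over all genes. With rescaled FPKM 5 fell, and with edgeR 6. *Ppbp*, another CXCR2 ligand, had 1.92 and 1.04 FPKM in WT and 0.815 and 1.49 in *Piezo1*-cKO. The genotypes overlapped, and its value of -0.20 was not called and turned above 0 without WT replicate 1 or without *Piezo1*-cKO replicate 1. *Ccl4*, *Ccl6* and *Cxcl10* were at 0.05, 0.04 and 0.46, and none was called. *Pf4*, a platelet chemokine, rose by 0.53, from 0.685 and 0.905 to at most 1.67 FPKM, and was not called with rescaled FPKM.

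In PB neutrophils, which had far fewer of these messages, *Cxcl2* and *Cxcl3* were lower in *Piezo1*-cKO as well. *Cxcl2* went from 925 and 944 FPKM in the WT to 335 and 338 FPKM in the *Piezo1*-cKO blood libraries (log2 fold change -1.47). *Cxcl3* had 3.35 and 3.66 against 0.715 and 0.416 FPKM (-1.53). *Cxcl1* was under 0.5 FPKM in WT PB and listed at 0 in both *Piezo1*-cKO PB libraries.

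The study displayed 7 genes for its lung neutrophils, *Ccl3*, *Vegfa*, *Il1b*, *Cxcl1*, *Cxcl2*, *Hilpda* and *Cd274*. They were chosen on these samples and are not independent evidence of a direction. All 7 had lower values in both *Piezo1*-cKO libraries than in both WT libraries and an adjusted p below 0.05 from limma. Over all genes the genotypes did not overlap at 76.6%, and 3265 of 6434 had such a p. Of the 7, 3 fell by more than 0.5, or 5 with rescaled FPKM. *Vegfa*, the main growth factor for endothelial cells, fell most of these, from 92.3 and 91.0 FPKM to 46.4 and 48.9 FPKM (log2 fold change -0.93, standard error 0.04, adjusted p = 2.84e-05). That is a drop of 48.0% in the mean. *Vegfa* fell in PB neutrophils as well, from 4.09 and 4.93 to 2.24 and 2.42 FPKM (-0.72). Its effects in lung and PB differed by -0.21, which was not called. *Hilpda*, an inhibitor of lipid breakdown that hypoxia induces, went from 553 and 564 to 400 and 388 FPKM. Its log2 fold change of -0.50 lay at the threshold, and it was -0.49 and no longer called without WT replicate 2 and -0.48 without *Piezo1*-cKO replicate 2. *Ccl3*, a chemokine for monocytes and other cells, had 484 and 497 FPKM in WT against 363 and 385, a log2 fold change of -0.39. It was called with rescaled FPKM, at -0.50. *Il1b* and *Cd274*, which encode the cytokine IL-1 beta and the checkpoint ligand PD-L1, moved little. *Il1b* had 9764 and 9776 FPKM in WT and 8691 and 8619 in *Piezo1*-cKO (-0.17), and *Cd274* had 150 and 143 against 129 and 126 (-0.19). In PB neutrophils *Il1b* was at -0.39 and not called. Of the 6 study genes tested in PB, 4 were lower and 2 higher in *Piezo1*-cKO, and 2, *Vegfa* and *Cxcl2*, fell.

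**Figure D3:**
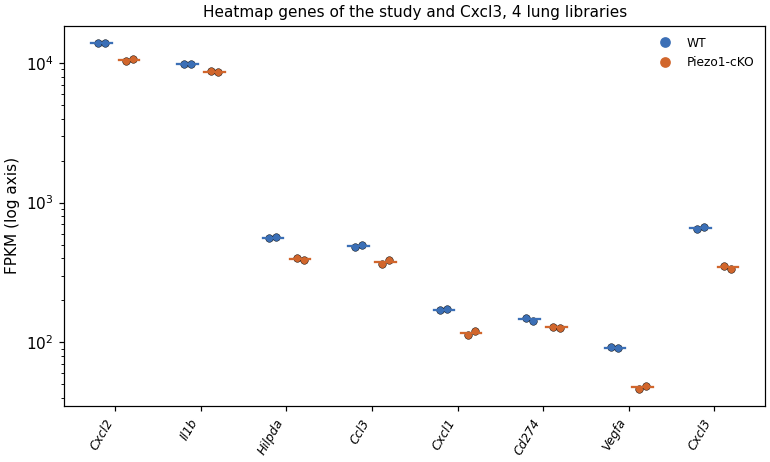
Points are the FPKM, on a log axis, of the 7 genes displayed by the study and of Cxcl3 in the 2 WT (blue) and 2 Piezo1-cKO (orange) lung libraries, and lines are means. The genotypes do not overlap at any of the 8 genes, with the widest gaps at Vegfa and Cxcl3.

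Of the wider list of angiogenesis factors and regulators, 22 of 44 were expressed highly enough to be tested. Of these 3 fell (13.6%, against 3.28% of all genes) and 2 rose (9.09%, against 10.8%), with a median of -0.04 against 0.09. Beside *Vegfa*, *Areg* and *Prok2* fell. *Areg*, an EGF receptor ligand, had 3.26 and 4.82 FPKM in WT and 1.73 and 2.42 in *Piezo1*-cKO (-0.70, adjusted p = 0.0149 from limma). *Prok2*, a secreted factor that is made by neutrophils and acts on endothelium, had 4.57 and 3.96 against 2.51 and 2.27 FPKM (-0.63). *Angpt2*, a ligand of the endothelial receptor TIE2, rose from 0.377 and 0.560 to 1.45 and 1.26 FPKM, and *Flt1*, which encodes a VEGF receptor, rose by 0.55 but by 0.48 and without a call with rescaled FPKM. The abundant members *Mmp9* and *Mmp8*, which encode matrix proteases, were each at 0.02, and *Thbs1*, which encodes the angiogenesis inhibitor thrombospondin 1, was at 0.15 with 781 and 775 FPKM in WT and 875 and 850 in *Piezo1*-cKO. *Hif1a*, the transcription factor of the hypoxia response, was at -0.10.

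Among secreted cytokines, 18 of 23 listed genes were tested, and 4 rose (22.2%, against 10.8% of all genes) and 1 fell (5.56%, against 3.28%). The median was -0.15 against 0.09 over all genes, and with rescaled FPKM 2 rose and 2 fell. *Tgfb1* rose from 0.895 and 0.795 to 2.37 and 2.97 FPKM (log2 fold change 0.99, adjusted p = 0.000587 from limma). These are low values for this gene, which had 42.0 to 42.8 FPKM in WT lung neutrophils of the tissue comparison. *Csf1*, the macrophage growth factor, rose from 51.7 and 50.2 to 81.1 and 77.6 FPKM (0.63). *Tnf*, with 102 and 107 against 150 and 154 FPKM, and *Il23a*, with 66.7 and 69.1 against 97.6 and 101, both rose by 0.54, but were at 0.43 and not called with rescaled FPKM. *Flt3l*, a growth factor of dendritic cells, fell by 0.52. *Il6* had no read in 3 of the 4 lung libraries and 0.123 FPKM in the other.

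The largest falls among genes of at least 5 FPKM in the higher genotype were in genes of several functions. *Sirpb1b* fell most. It encodes an activating receptor of the SIRP family and had 165 and 171 FPKM in WT and 54.8 and 60.5 FPKM in *Piezo1*-cKO, a ratio of WT to *Piezo1*-cKO of 2.92 (log2 fold change -1.53, standard error 0.05, adjusted p = 1.15e-05 from limma). *Sirpb1a*, a closely similar gene nearby, fell from 19.1 and 19.9 to 13.1 and 12.9 FPKM (-0.55), and reads of the 2 copies may have been split between them in counting. *Rgs1*, which shortens signalling of chemokine receptors through G proteins, fell from 91.1 and 89.5 to 38.3 and 38.4 FPKM (-1.22, standard error 0.04). *Gem*, a small GTPase that restrains calcium channels, fell from 5.03 and 5.78 to 2.35 and 2.27 FPKM (-0.95). *Id3*, an inhibitor of DNA-binding helix-loop-helix factors, fell from 4.79 and 5.65 to 2.49 and 2.28 FPKM (-0.87). Its relative *Id2*, named after its values were seen, fell from 191 and 191 to 116 and 119 FPKM (-0.70), whereas in PB neutrophils it rose from 59.5 and 64.8 to 113 and 108 FPKM. The others were *Tex12*, a meiosis gene (-1.34), the ribosomal gene *Rpl36a* (-1.06), *Smim20* and *Ccdc115*, which act in assembly of cytochrome oxidase and of the vacuolar proton pump (-1.05 and -0.86), *Cxcl3* and *Vegfa*. *Rpl36a* has many near-identical copies in the genome, and its value is uncertain.

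After *Commd10*, the largest risers had low levels in WT. *Arl6ip5*, which encodes a membrane protein of the endoplasmic reticulum, rose from 2.76 and 2.93 FPKM to 10.7 FPKM or more in both libraries (log2 fold change 1.62, standard error 0.08, adjusted p = 3.55e-05 from limma). *Gm13157*, *Anapc4* (a subunit of the anaphase-promoting complex), *Ywhag* (a 14-3-3 protein) and *Coa4* (a cytochrome oxidase assembly factor) rose by 1.37, 1.28, 1.27 and 1.22. *Pddc1*, the clock gene *Per2*, *Crip1* and *9130401M01Rik* rose by 1.22, 1.17, 1.17 and 1.16. In WT, the 9 genes after *Commd10* lay between 1.46 and 5.51 FPKM, and in *Piezo1*-cKO between 5.02 and 12.8 FPKM. All 10 risers and all 10 fallers were also called with rescaled FPKM. Of the 17 tested in PB neutrophils, where 19.9% of all genes tested were called, 2 rose there and 3 fell, each as in lung. The effect of genotype differed between lung and PB neutrophils, by the interaction in limma, at 7 of the 20 (6.85% over all genes). The 20 were chosen by their change in lung, which enters the interaction, so nothing is read from that share.

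**Figure D4:**
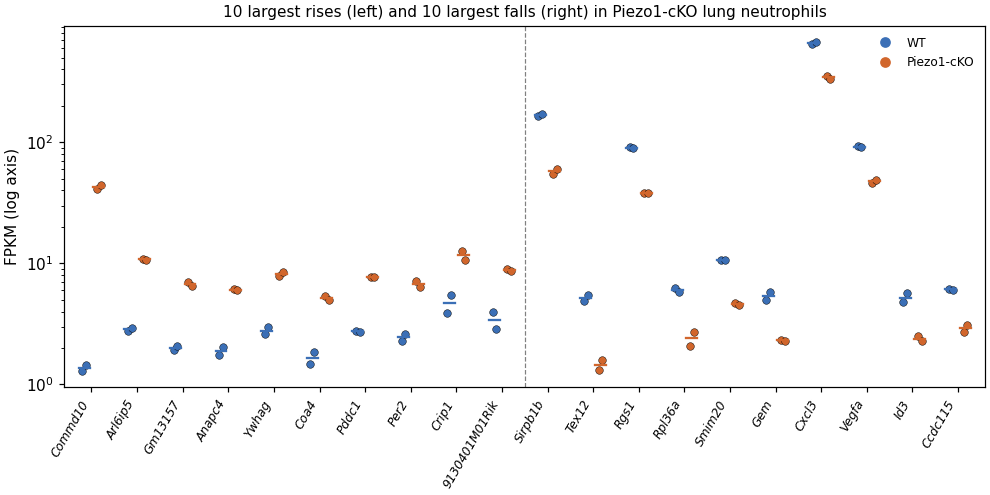
Points are the FPKM, on a log axis, of the 10 genes that rose most (left of the dashed line) and the 10 that fell most (right) in the 2 WT (blue) and 2 Piezo1-cKO (orange) lung libraries, and lines are means. Risers other than Commd10 stay below 12.8 FPKM in every library, whereas Sirpb1b, Rgs1, Cxcl3 and Vegfa fall from 89.5 FPKM or more.

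Genes of the cytoskeleton that move with cell shape were, where called, higher. Of 43 tested genes of the actin cytoskeleton and of SRF and YAP targets, 9 (20.9%) rose and 0 fell, against 10.8% and 3.28% of all genes, with a median of 0.11 against 0.09. With rescaled FPKM 7 rose, without *Vcl* and *Rhoa*. At an unadjusted p below 0.05 from limma 25 were higher and 8 lower, and edgeR and DESeq2 also called 0 lower. *Flna*, which crosslinks actin and binds integrins, rose from 33.7 and 33.2 to 65.6 and 65.5 FPKM (log2 fold change 0.95, standard error 0.04, adjusted p = 2.45e-05 from limma). *Cotl1*, an actin-binding protein, rose from 241 and 253 to 495 and 462 FPKM (0.95), and *Tln1*, the integrin activator talin, from 9.90 and 9.21 to 19.0 and 19.4 FPKM (0.94). *Mkl1*, an actin-regulated partner of SRF, rose from 2.10 and 2.28 to 4.70 and 5.73 FPKM (0.96). *Lmna*, *Actn1*, *Rock2*, *Vcl* and *Rhoa* rose by 0.68, 0.63, 0.60, 0.57 and 0.53. The abundant actins did not pass the threshold, with *Actb* and *Actg1* at 0.11, and the small GTPases *Rac1*, *Rac2* and *Cdc42* were at -0.03, -0.02 and 0.20. Of the 9 that rose, 8 were lower in WT PB neutrophils of this experiment than in those of the tissue comparison, with a median difference of -1.52, against 19 of the 43 tested with a median of 0.17. In PB neutrophils these genes differed. *Flna* fell, from 48.9 and 50.3 to 29.3 and 29.7 FPKM, and *Tln1* was at 0.03. *Cotl1* rose there as well, from 337 and 355 to 566 and 451 FPKM (0.54), and *Mkl1* was at 0.19 and not called.

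**Figure D5:**
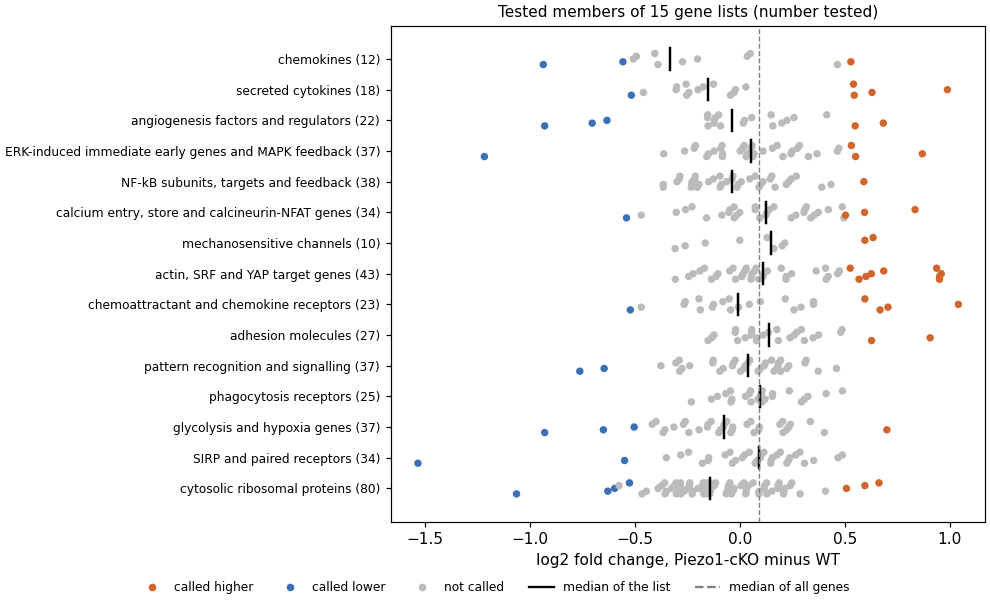
Each point is a tested member of 1 of 15 gene lists at its log2 fold change, Piezo1-cKO minus WT, in lung neutrophils, coloured by call, with the list's median as a black bar and the median of all genes (0.09) as a dashed line. The chemokine list has its median at -0.33, and the actin list has 9 members called higher and 0 called lower.

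Of 34 tested genes of calcium entry, stores and calcineurin signalling, 3 rose (8.82%) and 1 fell (2.94%), shares near the 10.8% and 3.28% of all genes (median 0.13). *Mcu*, the mitochondrial calcium uniporter, rose from 3.24 and 2.89 to 5.97 and 6.52 FPKM (0.83, adjusted p = 0.000557 from limma), and *Stim1*, the calcium sensor of the endoplasmic reticulum, from 3.66 and 3.23 to 5.54 and 5.87 FPKM (0.59). *Atp2a3*, a calcium pump, rose by 0.50 and was not called with rescaled FPKM. *S100a9*, a calcium-binding alarmin and one of the most abundant messages, fell from 34901 and 34620 to 23098 and 24772 FPKM (-0.54), and its partner *S100a8* was at -0.30. The calcineurin feedback gene *Rcan1* was at -0.26. Besides *Piezo1*, 10 of 26 listed stretch- or volume-sensitive channel genes were tested. Of these 10, 2 rose and 0 fell by limma, where 10.8% of all genes rose and 3.28% fell. The median of the 10 was 0.15 against 0.09 over all genes, and edgeR called 1 lower. *Lrrc8a*, a subunit of the volume-regulated anion channel, rose from 0.474 and 0.407 to 1.37 and 1.10 FPKM (0.63), and *Tmem63b*, an osmosensitive channel, from 1.16 and 1.02 to 2.33 and 1.99 FPKM (0.59).

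Immediate early genes are induced by calcium and ERK signalling within minutes. Of 37 tested, 3 rose (8.11%, against 10.8% of all genes) and 1, *Rgs1*, fell (2.70%, against 3.28%). Their median was 0.05 against 0.09 over all genes, and -0.05 with rescaled FPKM. *Jun* rose from 12.0 and 10.1 to 21.2 and 20.8 FPKM (0.87), *Fosb* by 0.55 and *Zfp36l1* by 0.53, the latter 2 not called with rescaled FPKM. *Fos*, *Egr1*, *Junb* and *Dusp1* lay between -0.26 and -0.16. Several of these genes also respond to tissue digestion. Of 30 tested genes of heat shock and dissociation 2 rose (6.67%, *Jun* and *Fosb*) and 1 fell (3.33%, *Hspe1*, a mitochondrial chaperonin, by 0.59). Among 38 NF-kB subunits, targets and feedback inhibitors 1 rose (2.63%, *Irf1*, by 0.59) and 0 fell by limma, with a median of -0.03. At an unadjusted p below 0.05, 13 were higher and 14 lower, and edgeR, DESeq2 and limma with rescaled FPKM called 0. The inhibitors *Nfkbia* and *Tnfaip3* were at 0.07 and 0.24, and *Nfkb1* and *Relb* at -0.29 and -0.30. Of 45 interferon-stimulated genes 3 rose (6.67%, against 10.8% of all genes) and 0 fell by limma (median 0.08). At an unadjusted p below 0.05 from limma 8 were lower, and edgeR and DESeq2 called 3 and 1 lower. The 3 risers encode GTPases that interferon gamma induces. They were *Igtp*, from 9.99 and 9.73 to 19.6 and 18.4 FPKM (0.88), *Gbp2* (0.56) and *Gbp7* (0.53). Of these *Igtp* alone was called with rescaled FPKM.

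Receptors for chemoattractants moved both ways. Of 23 tested, 4 rose (17.4%, against 10.8% of all genes) and 1 fell (4.35%, against 3.28%), with a median of -0.01. *C5ar2*, the second receptor for complement C5a, rose from 4.86 and 5.69 to 11.9 and 11.9 FPKM (1.04, adjusted p = 0.00018 from limma), *Cxcr3* by 0.71, the sphingosine-1-phosphate receptor *S1pr4* by 0.67 and *Ccr3* by 0.59. *P2ry10* fell by 0.52. The receptors that set release from and return to the bone marrow, *Cxcr2* and *Cxcr4*, were at 0.26 and -0.05. Of 27 adhesion genes 2 rose (7.41%, against 10.8% of all genes). *Icam2* went from 3.37 and 2.88 to 6.48 and 6.95 FPKM (0.91) and *Itgb7* from 12.6 and 13.3 to 19.9 and 21.1 FPKM (0.63). *Itgb2*, the common chain of the leukocyte integrins, was at 0.05.

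The list of cytokine and growth factor receptors also holds the feedback inhibitor *Cish*. Of its 37 tested genes 3 rose (8.11%) and 1, *Cish*, fell (2.70%), near the 10.8% and 3.28% of all genes (median 0.18). *Tgfbr1*, a receptor kinase for TGF-beta, rose from 2.87 and 3.08 to 7.04 and 6.72 FPKM (0.99, adjusted p = 0.000216 from limma). *Il6ra*, the binding chain of the IL-6 receptor, rose from 21.1 and 21.1 to 38.7 and 38.4 FPKM (0.84), and *Il17ra* rose by 0.54, a call lost with rescaled FPKM. *Cish*, a feedback inhibitor that STAT5 induces, fell from 3.11 and 4.04 to 1.44 and 1.49 FPKM (-0.89). Of 26 genes of G-protein signalling 3 rose (11.5%, against 10.8% of all genes) and 2 fell (7.69%, against 3.28%). The risers were *Arrb2* (0.78), *Gnb2* (0.58) and *Rgs3* (0.54), of which *Arrb2* alone was called with rescaled FPKM. The fallers were *Rgs1* and *Prkaca* (-0.52). Of the 14 tested genes of lipid mediator synthesis and receptors 2 rose (14.3%, against 10.8% of all genes). *Ptgs1*, or COX-1, went from 0.616 and 0.482 to 2.04 and 1.95 FPKM (0.95), and the prostaglandin E2 receptor *Ptger4* from 1.74 and 2.12 to 3.78 and 3.65 FPKM (0.69). *Ptgs2*, or COX-2, was at 0.22.

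Effector genes included receptors for uptake, the oxidase and sensors of microbes. Of 25 tested phagocytosis receptors and partners 0 were called by limma, edgeR or DESeq2, with 13 higher and 3 lower at an unadjusted p below 0.05 from limma. Of 23 genes of the NADPH oxidase and of antioxidant defence 1 rose (4.35%, against 10.8% of all genes). It was *Nqo1*, from 0.260 and 0.257 to 2.06 and 1.94 FPKM (1.25), while *Cybb* and *Ncf1* were at 0.25 and -0.03. *Nqo1* passed the filter through *Piezo1*-cKO alone. Of 37 pattern recognition genes 2 fell (5.41%, against 3.28% of all genes), both signalling adaptors of low level. *Pycard* (ASC) went from 1.98 and 1.74 to 0.827 and 0.558 FPKM (-0.76) and *Tmem173* (STING) from 1.99 and 1.91 to 0.758 and 1.02 FPKM (-0.65). Toll-like receptors 2 and 4 were at 0.23 and -0.03.

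Of the granule and maturation genes, 7.14% rose for secondary and tertiary granules and 14.3% for immature neutrophils, against 10.8% of all genes. Of 28 secondary and tertiary granule genes, *Chil3* rose from 58.6 and 59.6 to 101 and 101 FPKM (0.76) and *Camp* from 91.0 and 96.0 to 143 and 133 FPKM (0.56), and 0 fell by limma, edgeR or DESeq2 (median 0.02, 9 lower at an unadjusted p below 0.05). *Ltf*, *Ngp* and *Olfm4* were at 0.43, 0.34 and 0.45 and not called. *Chil3* and *Camp* were also the 2 risers among 14 genes of immature neutrophils, and *Gm2a* was the 1 riser among 25 genes of mature and aged ones (0.53). *Camp* and *Gm2a* were not called with rescaled FPKM. Of 9 primary granule genes 1 fell (11.1%, against 3.28% of all genes). It was *Prtn3*, or proteinase 3, from 1.93 and 1.03 to 0.559 and 0.144 FPKM (-0.87). *Mpo* and *Elane* were under the filter.

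Of 37 tested glycolysis and hypoxia genes, 3 fell (8.11%, against 3.28% of all genes) and 1 rose (2.70%, against 10.8%). At an unadjusted p below 0.05 from limma 16 were lower and 10 higher. The median was -0.07 against 0.09 over all genes, and 5 fell with rescaled FPKM and 7 with edgeR. The fallers were *Vegfa*, *Hilpda* and *Pgk1*, a glycolytic enzyme, which went from 50.4 and 48.5 to 33.2 and 29.2 FPKM (-0.65). *Kdm3a*, a histone demethylase that hypoxia induces, rose from a mean of 4.22 to 8.07 and 6.90 FPKM (0.70). *Gapdh*, *Ldha* and *Slc2a3* were at 0.07, 0.09 and 0.19. Of 17 lipid droplet genes 1 fell (5.88%), *Hilpda*, and 1 rose (5.88%), *Soat1*, which esterifies cholesterol (0.57, not called with rescaled FPKM). Their median was -0.15. *G0s2*, an inhibitor of the same lipase as HILPDA, had 8992 and 9116 FPKM in WT and 6415 and 6731 in *Piezo1*-cKO (-0.46, or -0.57 and called with rescaled FPKM).

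Among 18 checkpoint and costimulatory genes, 1 rose (5.56%, against 10.8% of all genes) and 1 fell (5.56%, against 3.28%). *Cd48*, a ligand of CD244, went from 0.0878 and 0.218 to 2.31 and 1.42 FPKM (1.30), and *Pdcd1lg2*, or PD-L2, from 2.52 and 2.16 to 1.25 and 1.05 FPKM (-0.63). Of 29 genes of the BCL2 family and apoptosis 2 rose (6.90%, against 10.8% of all genes). They were *Pmaip1* (NOXA), from 35.8 and 37.2 to 61.8 and 64.7 FPKM (0.78), and *Bcl2l13* (0.64). *Mcl1*, on which neutrophil survival depends, was at 0.01. Of 34 SIRP and other paired receptors 2 fell (5.88%, against 3.28% of all genes), the *Sirpb1* genes named above, and *Sirpa* was at 0.47.

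A few of the larger rises were in single members of the clock and glucocorticoid lists. *Per2*, a repressor of the clock, had 2.30 and 2.59 FPKM in WT and 7.10 and 6.43 in *Piezo1*-cKO (1.17, adjusted p = 0.000172 from limma), and *Cry1*, its partner, 5.42 and 4.93 against 10.6 and 10.6 (0.91). Of 6 clock genes tested these 2 rose (33.3%, against 10.8% of all genes), and *Bhlhe40* and *Nfil3* were at -0.40 and -0.17. Of 16 glucocorticoid-induced genes 2 rose (12.5%, against 10.8% of all genes) and 1 fell (6.25%, against 3.28%). Their median was -0.01 against 0.09 over all genes. *Fkbp5*, a chaperone partner of the glucocorticoid receptor, rose from 8.80 and 8.48 to 18.7 and 20.3 FPKM in lung (1.09, adjusted p = 8.46e-05 from limma), and from 22.2 and 21.7 to 55.4 and 52.2 FPKM in PB neutrophils. *Pik3r1* rose by 0.59, *Mt1* fell by 0.65, and *Tsc22d3* and *Per1* were at 0.13 and 0.23. The time of day at which each mouse was sampled is not in the labels, and its part in these values was not tested.

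Markers of other cells ranged from near 0 to over 1000 FPKM in sum, the highest being those of monocytes and macrophages and of dendritic cells. The 12 lung epithelial markers summed to 10.4 and 10.5 FPKM in WT and 6.01 and 5.71 in *Piezo1*-cKO, and the 2 tested, *Scgb1a1* (at least 4.97 against 3.19 and 2.70 FPKM) and *Hopx* (3.01 and 4.17 against 1.17 and 1.68), fell by 0.67 and 0.92. Of 9 erythroid markers *Hbb-bs*, 1 of 2 tested, fell from 2.52 and 2.29 to 0.319 and 0.219 FPKM, and the list summed to 5.88 and 6.37 against 1.27 and 2.61. In PB neutrophils *Hbb-bs* went the other way, from 9.73 and 9.28 to 338 and 408 FPKM. The 12 alveolar macrophage markers summed to 74.4 and 76.1 FPKM in WT and 121 and 122 in *Piezo1*-cKO. Most of that was *Chil3*, and 4 of the 12, with no read in any lung library, were at 0. *Ear2* rose from 0.0938 and 0.372 to 3.13 and 2.15 FPKM and *Plet1* fell by 0.76. Of 12 dendritic cell markers *H2-Aa*, an MHC class II gene, fell from 70.4 and 71.7 to 46.6 and 50.3 FPKM (-0.54), and the list summed to 291 and 302 against 278 and 284. Of 15 monocyte and macrophage markers *Adgre4* rose (0.65), and the list summed to 1165 and 1174 against 1254 and 1246. Eosinophil, basophil and mast cell markers (10 genes, *Ccr3* called higher) summed to 14.6 to 18.9 FPKM per library, and platelet markers (9 genes, *Pf4* called higher) to 2.48 to 3.94. T and NK cell, B cell, endothelial, and fibroblast and smooth muscle markers, of which 0 of 4 tested were called by limma, edgeR or DESeq2 (2 higher and 1 lower at an unadjusted p below 0.05), summed to at most 2.67, 0.42, 2.96 and 26.4 FPKM in any lung library. What part such cells had in the results was not tested.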

How the data were processed

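The authors deposited FPKM per gene and library, made with fastp, HISAT2 (mm10) and HTSeq, in versions not given in the sources used here. The labels name a SMARTER mRNA kit and the study's methods a VAHTS Universal V6 kit. The deposited signal per group, the mean of counts over DESeq2 size factors, let whole reads be recovered (100.0% of values within 0.05 of a whole number). The authors' fold changes, p-values and q-values in the same tables were not used. The 27 symbols turned into dates were restored by NCBI identifier.

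Samples were grouped by the deposited labels. Genes with at least 1 FPKM in at least 2 of the 4 lung libraries were tested by limma-trend (limma 3.58.1, R 4.3.3, robust) on log2(FPKM + 1), with Benjamini-Hochberg adjustment over all genes tested. The pseudocount understates changes of low genes. PB libraries were tested alike, and the interaction over 8 libraries was called at an adjusted p below 0.05 and an absolute difference above 1. With 2 against 2 libraries an exact two-sided permutation test cannot go below p = 0.333, so none is given. edgeR 4.0.16 and DESeq2 1.42.0 on recovered reads were alternatives, as were a pseudocount of 0.1, no filter, a filter at 5 FPKM, rescaling by the median ratio, a replicate block, all 8 libraries in 1 fit, the adjusted p alone and each library left out. For a gene without reads the limit is 3 reads per library, which is 0.200 to 0.210 per 1000000 and covers counting error only. Scripts were tested on simulated data.

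The genes named are *Piezo1*, the 7 genes the study displayed, the 10 largest rises and 10 largest falls with an adjusted p below 0.05, no overlap of the genotypes and a mean of at least 5 FPKM in the higher one, up to 4 members with the largest change from each of 46 lists, and called genes within 5 Mb of *Piezo1* and *Commd10*. Other list members are given by value only. The members and lists were chosen with earlier results of these data known. No p is adjusted over a list alone, and lists were not tested as sets.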

Additional observations from a re-analysis of the deposited data

Results flagged for a closer look

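Of the 26 named genes that the study displayed or that changed most in lung neutrophils, 8 had effects of genotype that differed between lung and PB neutrophils by more than 1 on the log2 scale, with an adjusted p below 0.05 for the interaction from limma over 8 libraries. Over all genes tested, 518 of 7560 (6.85%) did. Most of the 26 were chosen for a large change in lung, which enters this difference, so nothing is read from their share. *Cxcl2* was lower by 0.40 in lung and by 1.47 in PB, a lung effect 1.07 above that in PB. *Commd10* was 4.21 higher in lung and 5.59 higher in PB, a difference of -1.39. *Arl6ip5* was at 1.62 in lung and 0.24 in PB (difference 1.38), *Gm13157* at 1.37 and 0.22 (1.15), and *Pddc1* at 1.22 and 0.11 (1.11). *Ywhag* was at 1.27 in lung and -0.31 in PB (1.58), and *Per2* at 1.17 and -0.09 (1.26). *Tex12* was at -1.34 in lung with a difference of -1.74, and was under the filter in PB, with 0.246 and 0.432 FPKM in WT and 0.842 and 0.687 FPKM in *Piezo1*-cKO.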

How the results depend on the processing

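The count of genes called, 903, was 1392 with a pseudocount of 0.1, 382 with a filter at 5 FPKM, 1650 with edgeR without a filter (chosen after seeing the data) and 3265 by the adjusted p alone. The count of DEGs, 64, was 332 with a pseudocount of 0.1, 23 with a filter at 5 FPKM, 345 with edgeR under TMM and under RLE scaling, 311 with DESeq2 and 938 with edgeR without a filter. The filter at 5 FPKM tested fewer genes, and a smaller pseudocount shrinks low genes less. For other rises in these counts the cause was not tested. Leaving out 1 library gave 920 to 941 genes called and 69 to 75 DEGs, where the lone library was assumed to vary like the others. The 8 differences between lung and PB effects were 14 with a pseudocount of 0.1 and 8 to 11 with 1 library left out. The log2 fold change of Ppbp, at -0.20 and not called, ranged from -0.459 to 0.0565 with 1 library left out, and was above 0 without WT replicate 1 and, at 0.0264, without *Piezo1*-cKO replicate 1. Replicate numbers were shared between genotypes. The deviations of same-numbered libraries from the means of their genotypes had a correlation of -0.02. With 2 libraries per genotype the second pair mirrors the first, so this value cannot show whether the numbers mark a pairing. With the replicate block, 906 genes were called and 62 were DEGs, of which 897 and 62 were also in the counts without it. Of the alternative values of the 97 named genes that were called, 1204 kept direction and call and 120 lost the call with the same direction. Genes with few reads, *Piezo1* among them, are limited by depth.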

Other observations

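Genes of the translation and energy machinery, not described above, moved both ways, where 10.8% of all genes rose and 3.28% fell. Of 80 cytosolic ribosomal protein genes tested, 4 fell and 3 rose by limma, with a median log2 fold change of -0.14 against 0.09 over all genes, and 7 fell and 2 rose with rescaled FPKM. Of 75 nuclear-encoded subunits of the respiratory chain, 2 fell and 4 rose, with a median of -0.03, and 6 fell and 2 rose with rescaled FPKM. These genes are short, and what part length had was not tested.

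Of the 7 COMMD family genes tested 2 rose (28.6%, against 10.8% of all genes), *Commd10* among them. Of 13 tested genes within 5 Mb of *Commd10* 0 were called by limma (7 at an unadjusted p below 0.05) or DESeq2 and 1 by edgeR, and of 43 within 5 Mb of *Piezo1*, 4 rose, where 10.8% of all genes rose. *Rnf166*, the nearest of the 4, went from 12.7 and 11.8 to 17.7 and 19.1 FPKM (0.55), *Hsdl1* rose by 0.99 and *Zdhhc7* by 0.55, and the fourth was *Cotl1*.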
